A study of Mus musculus with 4 samples.

Results

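Matricellular proteins and lysyl oxidases were examined in soleus muscle of dystrophic mice as a set of 10 genes, *Fn1*, *Postn*, *Spp1*, *Ctgf* (also named *Ccn2*), *Cyr61* (also named *Ccn1*), *Thbs1*, *Thbs2*, *Sparc*, *Lox* and *Loxl1*. They were taken by gene symbol from a table of 24054 symbols, and all 10 were found and passed the filter on low counts. The muscles came from female *mdx* mice, whose dystrophin gene is mutated, and both groups share this mutation. Infusions into the femoral vein began at 8 weeks of age and were given monthly until the 12-month endpoint. The mCDC group (2 muscles) received mouse cardiosphere-derived cells, which are stromal cells grown from 1 heart of a mouse without the mutation, and the vehicle group (2 muscles) received the culture medium alone. Each value below comes from RNA sequencing of the whole muscle, in which the authors estimated counts per gene with RSEM. No untreated or wild-type muscle was analysed here, so the values say how treated *mdx* muscle differed from vehicle-treated *mdx* muscle.

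Matricellular proteins are secreted into the extracellular matrix, where they act mainly on cell behavior and matrix assembly and contribute less to its mechanical strength. They bind integrins and other receptors, growth factors, and the collagens, and many are raised during wound repair and fibrosis. Lysyl oxidases are copper enzymes that oxidize lysine side chains of collagen and elastin, which then form the covalent cross-links that stiffen a scar. In muscular dystrophy the space between fibers fills with such matrix, made largely by fibroblasts and fibro-adipogenic progenitors, with macrophages as a main source of osteopontin.

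Library totals of the expected counts ran from 22481391 to 27187425. Slow fiber genes of the soleus were abundant in every library, and 8 of them together took from 74980 to 91850 CPM (here, counts per TMM-scaled library size). The 10 genes had between 34 and 4167 counts in a library and all 40 of these estimates were whole numbers. For 1 gene in 2 against 2 muscles, the smallest p of an exact permutation test is 0.333, so the tests below come from one fit of edgeR over the 13652 genes that passed the filter. Called here means more than 1.5-fold apart and an unadjusted p under 0.05. Of all genes tested, 2.74% were called lower and 1.26% higher in mCDC muscles. By the edgeR quasi-likelihood test 0 genes had an adjusted p under 0.05, against 947 with an unadjusted p under 0.05. The edgeR exact test gave 58 genes with an adjusted p under 0.05, its likelihood ratio test 66 and DESeq2 48, and none of the 10 was among them.

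The promoter windows of *Cyr61*, *Spp1* and *Postn* are shown because *Cyr61* is a known target of the TEAD transcription factors and because *Spp1* and *Postn* were among the 3 genes whose groups did not overlap. RefSeq windows of the GRCm38.p6 assembly were found for 5 of the 10 genes, *Postn*, *Spp1*, *Cyr61*, *Thbs2* and *Sparc*. Each window holds the 250 bases before a transcript start and was searched on both strands for GGAATG (TEAD), TGANTCA (AP-1), CAGACA (SMAD) and GGGCGG (SP1), of which no matches overlapped each other in the windows shown. Capitals mark these matches, read on either strand, and each sequence runs 5′ to 3′ along the gene's strand. *Cyr61* is at chr3:145649986-145650235 on the minus strand, *Spp1* at chr5:104434861-104435110 on the plus strand and *Postn* at chr3:54360857-54361106 on the plus strand.
Cyr61: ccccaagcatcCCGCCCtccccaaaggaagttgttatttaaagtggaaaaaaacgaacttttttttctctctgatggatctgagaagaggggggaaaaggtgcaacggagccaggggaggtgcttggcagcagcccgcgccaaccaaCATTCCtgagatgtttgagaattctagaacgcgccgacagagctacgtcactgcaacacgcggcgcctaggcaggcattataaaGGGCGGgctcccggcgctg
Spp1: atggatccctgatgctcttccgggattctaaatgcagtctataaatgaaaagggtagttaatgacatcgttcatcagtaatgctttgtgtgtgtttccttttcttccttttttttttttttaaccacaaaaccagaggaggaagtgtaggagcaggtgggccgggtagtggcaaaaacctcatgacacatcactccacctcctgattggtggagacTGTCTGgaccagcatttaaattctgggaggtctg
Postn: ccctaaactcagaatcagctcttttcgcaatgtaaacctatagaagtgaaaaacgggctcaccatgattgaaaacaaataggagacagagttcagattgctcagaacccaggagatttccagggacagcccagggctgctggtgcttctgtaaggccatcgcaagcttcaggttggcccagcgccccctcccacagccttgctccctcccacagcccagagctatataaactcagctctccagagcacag

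The *Cyr61* window held 1 TEAD match, which began 103 bases before the start, and 2 SP1 matches. *Spp1* held 1 SMAD match, 34 bases before the start, and *Postn* held none of the 4 motifs. The 5 genes had 7 windows, as *Spp1* and *Postn* each had a second transcript start, and the windows shown are those next to the start of the gene's GENCODE model. The other window of *Spp1* and that of *Postn* held none of the 4 motifs. Of the windows not shown, that of *Thbs2* held 2 SMAD matches and that of *Sparc* 1. Among all 32851 RefSeq windows of the same length, 12.6% held the TEAD letters, 6.75% the AP-1 letters, 17.1% the SMAD letters and 32.7% the SP1 letters. A match of letters is a description and was not measured as a binding site.

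To compare the genes with one another, counts were divided by exon length and scaled to TPM, the abundance per exon length on the same total in each library. *Cyr61* had the highest mean level per length, 195 TPM over the 4 libraries, and *Spp1* the lowest, 3.60 TPM, a 54.3-fold range. Between them came *Sparc* with 90.6 TPM, *Ctgf* with 63.4, *Loxl1* with 25.3, *Fn1* with 15.1, *Postn* with 8.63, *Thbs2* with 7.32, *Lox* with 5.06 and *Thbs1* with 4.02. Of the 9 pairs of neighbors in this order, only *Ctgf* and *Loxl1* had ranges over the 4 libraries that did not overlap, 36.7 to 110 against 22.5 to 31.4 TPM. The CCN genes and *Sparc* were thus above the other 7, and the order stayed the same when the longest transcript replaced the union of exons as the length.

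**Figure D1:**
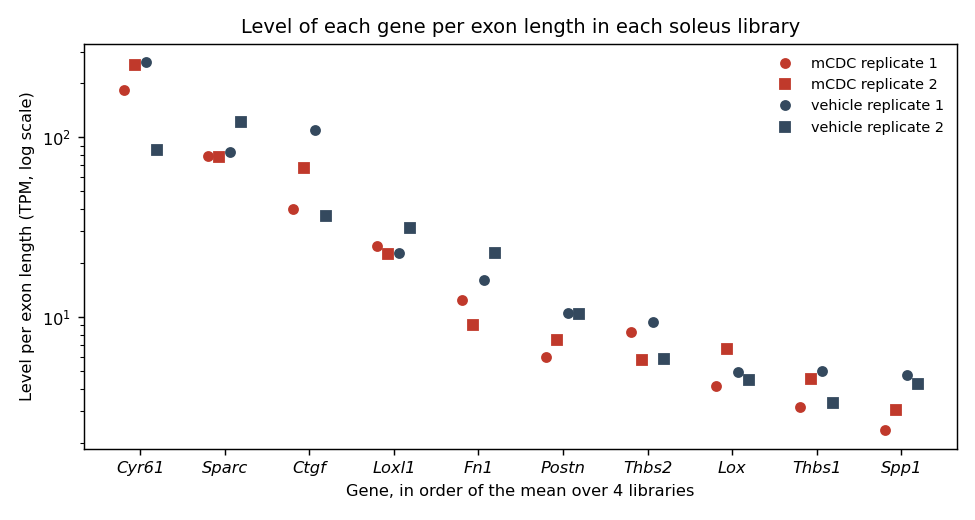
Level of each gene per exon length (TPM, log scale) in each of the 4 soleus libraries, with mCDC muscles in red, vehicle muscles in dark blue, circles for replicate 1 and squares for replicate 2. *Cyr61* led with a mean of 195 TPM and *Spp1* was lowest with 3.60, and the 4 points of *Cyr61* spread from 85.0 to 261.

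Of the 10 genes, 1 was called lower in mCDC muscles (*Fn1*) and 0 were called higher, where 2.74% of all genes tested were called lower and 1.26% higher. In 3 genes, *Fn1*, *Postn* and *Spp1*, both mCDC libraries lay below both vehicle libraries, which 19.5% of all genes tested did. None of the 10 lay above in the same way, against 19.2% of all genes. The median log2 fold change of the 10 genes was -0.16, beside -0.0094 over all genes, with 6 below 0 and 4 above.

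**Figure D2:**
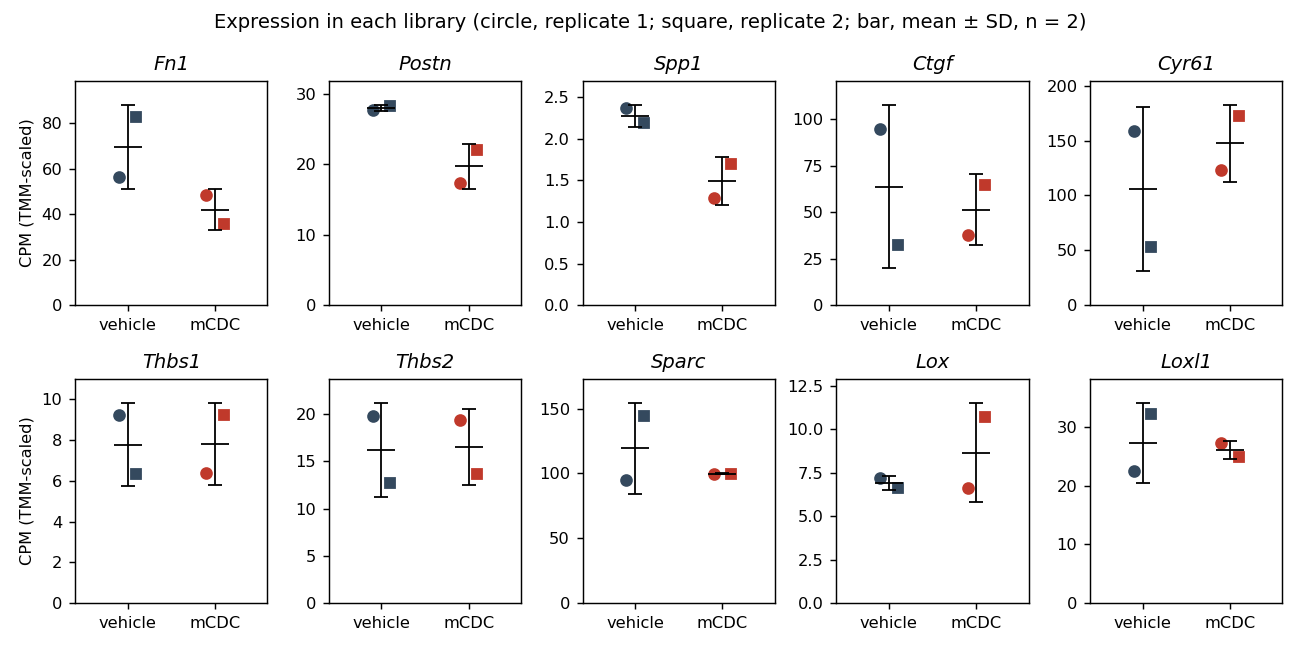
CPM of each gene in each library, on axes that start at 0, with vehicle muscles in dark blue, mCDC muscles in red, circles for replicate 1, squares for replicate 2 and bars for the mean ± SD (n = 2). The groups were separate for *Fn1*, *Postn* and *Spp1* and overlapped for the other 7 genes.

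*Fn1* encodes fibronectin, the adhesive glycoprotein whose fibrils form the first scaffold of a scar and carry the cell-binding site of several integrins. It lies at chr1:71585520-71653200 on the minus strand of GRCm38, the same assembly as the mm10 build in the submitters' processing notes, with 45 merged exons. *Fn1* had 48.3 and 35.8 CPM in mCDC replicates 1 and 2, and 56.5 and 82.6 CPM in vehicle replicates 1 and 2. Both mCDC muscles were lower than both vehicle muscles, and the nearest pair, mCDC replicate 1 and vehicle replicate 1, stood closer together than the vehicle muscles did to each other. The group means were 42.0 ± 8.88 and 69.5 ± 18.4 CPM (SD, n = 2), a log2 fold change of -0.72 (standard error 0.22, 95% interval -1.23 to -0.22, unadjusted p = 0.0105, edgeR adjusted p = 0.635). Without vehicle replicate 2 the log2 fold change was -0.43 and without mCDC replicate 2 it was -0.52, and *Fn1* was not called in either case. With the dependence on transcript length and GC content removed it was -0.56, which was also short of 1.5-fold.

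Vehicle replicate 2, in which *Fn1* was highest, also had the highest sums of fibroblast and endothelial markers. The 12 fibroblast markers summed to 946 CPM there and to between 496 and 619 CPM in the other 3 libraries, and none was at 0 in all libraries. Of the 11 tested, *Pdgfra* and *Lum* were called lower in mCDC muscles (2.74% of all genes were), with log2 fold changes of -0.74 and -1.02. Without vehicle replicate 2 they were at -0.23 and -0.47. *Pdgfra* was also not called without a filter on low counts (-0.74) or with the replicate block (-0.69), and was at -0.57 without mCDC replicate 2. With vehicle replicate 1 left out 9 fibroblast markers were called lower, and with vehicle replicate 2 left out 0 were. The 8 endothelial markers summed to 304 CPM in vehicle replicate 2 and to between 136 and 171 CPM elsewhere, with 0 called, although all 8 were called lower without vehicle replicate 1. Pericyte and smooth muscle markers (344 to 398 CPM), Schwann cell markers (155 to 182 CPM) and satellite cell markers (241 to 370 CPM) varied less between libraries. In these lists *Rgs5* was called lower (-0.60), and *Cspg4* (0.63) and *Pax7* (0.76) higher, of which *Cspg4* (0.19) and *Rgs5* (-0.54) were not called without mCDC replicate 2. *Cspg4* was also not called without either vehicle library (0.57 and 0.68), with library totals (0.55) or with the replicate block (0.58). *Pax7* kept a similar size where it was not called, with DESeq2 (0.77), without vehicle replicate 2 (0.65) and without mCDC replicate 1 (0.73) or 2 (0.79). The part of these markers in the result for *Fn1* was not tested. In whole muscle, fewer cells of a type and less RNA per cell cannot be told apart.

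*Postn* encodes periostin, a fasciclin-domain protein of fibroblasts that binds collagen and is used as a marker of active fibrosis. The gene is at chr3:54361109-54391037 on the plus strand, with 22 merged exons and no exon bases shared with another annotated gene. Its levels were 17.4 and 22.0 CPM in mCDC replicates 1 and 2, and 27.7 and 28.3 CPM in vehicle replicates 1 and 2. The vehicle muscles were almost equal, and the spread lay in the mCDC muscles. The means of 19.7 ± 3.22 and 28.02 ± 0.399 CPM (SD, n = 2) gave a log2 fold change of -0.51 (standard error 0.17, 95% interval -0.90 to -0.12), with an unadjusted p = 0.0163 and an edgeR adjusted p = 0.673. *Postn* was 1.42-fold lower and so did not reach the threshold of 1.5-fold. It reached the threshold without mCDC replicate 2, at -0.68, and with library totals in place of the trimmed mean, at -0.59. It was at -0.35 without mCDC replicate 1 and at -0.33 with the length and GC trend removed, and its unadjusted p was then above 0.05.

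*Spp1* encodes osteopontin, a phosphoprotein secreted by macrophages and regenerating muscle cells that binds integrins and CD44. It was the scarcest of the 10, with 34 and 37 counts in the mCDC muscles, and 62 and 60 counts in the vehicle muscles. In CPM these were 1.29 and 1.69 against 2.37 and 2.18, so that both mCDC muscles were below both vehicle muscles. The 95% Poisson intervals of the counts, which cover counting error only, ran from 1.19 to 2.33 CPM in mCDC replicate 2 and from 1.67 to 2.81 CPM in vehicle replicate 2, and these overlapped. The log2 fold change was -0.62 (standard error 0.31, 95% interval -1.33 to 0.09, unadjusted p = 0.0792, edgeR adjusted p = 0.726), so the gene was 1.54-fold lower without passing the test. The 12 macrophage markers summed to 84.7 and 115 CPM in mCDC muscles and to 84.3 and 117 CPM in vehicle muscles, and overlapped. Of the 11 tested, *Csf1r* was called lower (-0.67) and *Cd68* higher (1.49). *Cd68* had 15.4 CPM in mCDC replicate 2 and 2.71 to 4.15 CPM in the other 3 libraries, and was at 0.27 without mCDC replicate 2, while *Csf1r* was at -0.30 without vehicle replicate 2, and neither was then called. *Cd68* was also not called with DESeq2 (1.52) or without vehicle replicate 1 (1.23) or 2 (1.84), nor *Csf1r* with DESeq2 (-0.66), without a filter on low counts (-0.67), with the replicate block (-0.64) or without mCDC replicate 2 (-0.50). Their part in the level of *Spp1* was not tested.

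The CCN proteins *Ctgf* and *Cyr61* are short secreted proteins that bind integrins and heparan sulfate, and both genes are switched on quickly by stretch and growth factors. *Ctgf* is at chr10:24595442-24598683 on the plus strand and *Cyr61* at chr3:145646976-145649981 on the minus strand. *Ctgf* had 37.9 and 64.9 CPM in mCDC replicates 1 and 2, and 94.9 and 32.7 CPM in vehicle replicates 1 and 2. *Cyr61* had 123 and 172 CPM in mCDC replicates 1 and 2, and 159 and 53.4 CPM in vehicle replicates 1 and 2. For both genes vehicle replicate 2 was the lowest of the 4 libraries and vehicle replicate 1 was high, so the groups overlapped.

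Neither CCN gene was called. The log2 fold change of *Ctgf* was -0.31 (95% interval -1.33 to 0.71, edgeR adjusted p = 0.876) and that of *Cyr61* was 0.47 (95% interval -0.50 to 1.45, edgeR adjusted p = 0.813). Each interval holds a change of 2-fold in one direction. Vehicle replicate 1 exceeded vehicle replicate 2 by 2.90-fold in *Ctgf* and by 2.98-fold in *Cyr61*. Among the 13639 genes with counts in both vehicle libraries, 1.39% had a gap at least as large as that of *Ctgf* and 1.28% one as large as that of *Cyr61*. Single libraries decided the values. *Ctgf* was at 0.03 without mCDC replicate 1 and at -0.75 without mCDC replicate 2. It was at 0.66 without vehicle replicate 1 and at -0.89, and called lower, without vehicle replicate 2, while *Cyr61* was at 1.47, and called higher, without vehicle replicate 1 and at -0.11 without vehicle replicate 2. The 6 adipocyte markers, with *Cfd* the most abundant, summed to 64.7 CPM in vehicle replicate 1, 17.7 CPM in vehicle replicate 2, and 37.8 and 36.1 CPM in the mCDC muscles. None was called, although 6 were called lower without vehicle replicate 2 and 4 higher without vehicle replicate 1. The part of that difference in the CCN values was not tested.

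The thrombospondins *Thbs1* and *Thbs2* encode trimeric glycoproteins that restrain blood vessel growth, and thrombospondin-1 can also release active TGF-beta from its latent form. *Thbs1* is at chr2:118111876-118127133 on the plus strand and *Thbs2* at chr17:14665500-14694235 on the minus strand. *Thbs1* had 6.40 and 9.23 CPM in mCDC replicates 1 and 2, and 9.23 and 6.33 CPM in vehicle replicates 1 and 2. *Thbs2* had 19.4 and 13.7 CPM in mCDC replicates 1 and 2, and 19.8 and 12.7 CPM in vehicle replicates 1 and 2. In each gene 1 library of each group was high and 1 low, and the group means nearly coincided. *Thbs1* averaged 7.81 ± 2.0 and 7.78 ± 2.05 CPM (SD, n = 2) in mCDC and vehicle muscles, and *Thbs2* 16.5 ± 4.1 and 16.2 ± 5.0 CPM. The 95% interval of the log2 fold change was -0.62 to 0.62 for *Thbs1* and -0.56 to 0.62 for *Thbs2*. These intervals do not exclude changes of about 1.5-fold in either direction. The 7 platelet markers, of a cell type rich in thrombospondin-1, summed to between 10.7 and 12.4 CPM in every library.

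*Sparc* encodes osteonectin, which binds collagen in the secretory pathway and in the matrix and affects how fibrils assemble. The gene is at chr11:55394500-55423183 on the minus strand. It had 99.9 and 99.7 CPM in mCDC replicates 1 and 2, and 94.5 and 144 CPM in vehicle replicates 1 and 2. The mCDC muscles differed by less than 1 CPM and lay between the vehicle muscles. The log2 fold change was -0.26 (standard error 0.20, 95% interval -0.71 to 0.20, edgeR adjusted p = 0.782), and it was 0.08 without vehicle replicate 2.

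*Lox*, the founding lysyl oxidase, and *Loxl1*, which acts mainly on elastin, were not called in either direction. *Lox* is at chr18:52516067-52529867 and *Loxl1* at chr9:58287738-58313186, both on the minus strand. *Lox* had 6.63 and 10.7 CPM in mCDC replicates 1 and 2, and 7.17 and 6.62 CPM in vehicle replicates 1 and 2. mCDC replicate 2 was high and the other 3 libraries were close together. The log2 fold change was 0.32 (standard error 0.26, 95% interval -0.27 to 0.92, edgeR adjusted p = 0.790), with -0.06 without mCDC replicate 2 and 0.63, which was called higher, without mCDC replicate 1. *Loxl1* had 27.3 and 24.99 CPM in mCDC replicates 1 and 2, and 22.5 and 32.2 CPM in vehicle replicates 1 and 2, with the mCDC values between the vehicle values. Its log2 fold change was -0.07 (standard error 0.19, 95% interval -0.52 to 0.38, edgeR adjusted p = 0.952).

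**Figure D3:**
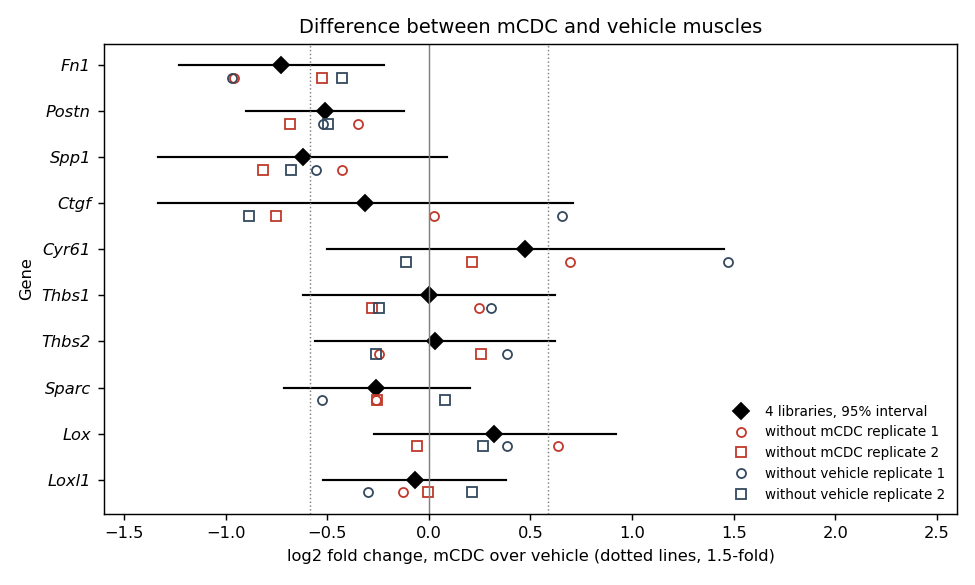
Log2 fold change of mCDC over vehicle muscles for each gene. Black diamonds and lines give the value from all 4 libraries with its 95% interval, open symbols give the value with 1 library left out, and dotted lines mark 1.5-fold. *Fn1*, *Postn* and *Spp1* stayed below 0 whichever library was left out, while the other 7 genes had values on both sides of 0.

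Across the 4 libraries the genes did not vary together. *Fn1*, *Sparc* and *Loxl1* were highest in vehicle replicate 2, at 0.63, 0.42 and 0.28 above their mean over the 4 libraries in log2 CPM. *Postn* was also highest there, but vehicle replicate 1 was nearly as high, at 0.24 against 0.27. *Ctgf*, *Cyr61*, *Thbs1* and *Thbs2* were instead lowest in vehicle replicate 2, at -0.69, -1.12, -0.28 and -0.34, and *Lox* was at -0.20 there, by a narrow margin its lowest value too. The vehicle muscles thus differed from each other in opposite directions for *Fn1* and *Sparc* on one side and the CCN genes and thrombospondins on the other. With 4 libraries no correlation was computed.

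**Figure D4:**
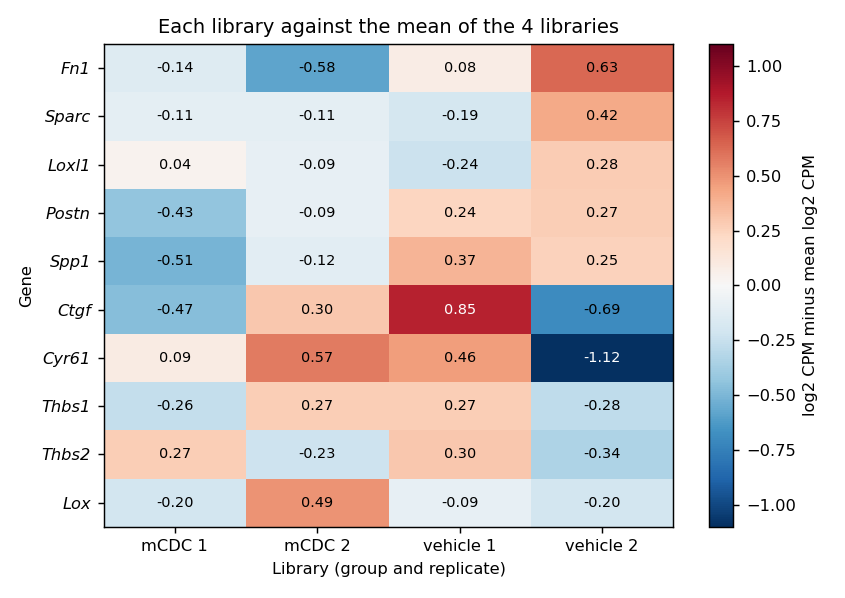
Log2 CPM of each gene in each library minus its mean over the 4 libraries, with red above and blue below that mean. The column of vehicle replicate 2 holds the highest value of *Fn1* (0.63) and *Sparc* (0.42) and the lowest of *Cyr61* (-1.12) and *Ctgf* (-0.69).

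A list of 24 relatives held other CCN, thrombospondin, SPARC-family and fasciclin-domain genes. It also held tenascins, *Vtn*, *Fbln1* and *Fbln2*, which are outside the families of the 10, and 19 of the 24 were tested. 5 of these were called lower in mCDC muscles (2.74% of all genes were) and 0 higher (1.26%), and the median log2 fold change of the 19 was -0.37. The list summed to 647 CPM in vehicle replicate 2, the library with the highest fibroblast and endothelial marker sums, and to between 389 and 437 CPM in the other 3 libraries, and the part of those markers was not tested. The 5 were *Comp* (-0.76), a thrombospondin of tendon and cartilage, *Stab1* (-0.74), a scavenger receptor with fasciclin domains, *Smoc2* (-0.69), a SPARC-family protein, *Sparcl1* (-0.59), called hevin, and *Wisp2* (-0.59), a CCN protein. *Comp* had 11.2 and 9.82 CPM in mCDC replicates 1 and 2 and 19.7 and 15.8 CPM in vehicle replicates 1 and 2, with the groups well apart. The number called lower was 3 with DESeq2 and 3 with the replicate block. Without vehicle replicate 2, *Stab1* was at -0.15, *Sparcl1* at -0.23, *Smoc2* at -0.28, *Wisp2* at -0.42 and *Comp* at -0.91. Without mCDC replicate 2, *Stab1* was at -0.87, *Comp* at -0.67, *Smoc2* at -0.57, *Sparcl1* at -0.49 and *Wisp2* at -0.43. Without vehicle replicate 1, *Comp* was at -0.58, just short of 1.5-fold, and the other called relatives ran from -1.15 (*Stab1*) to -0.74 (*Wisp2*). Of the relatives that were not called, *Thbs4* had a log2 fold change of -0.43, *Thbs3* -0.27, *Tgfbi* -0.30, *Nov* -0.59, *Wisp1* 0.15 and *Tnc*, the gene of tenascin-C, 0.32. With 1 library left out, *Nov* ran from -1.63 to -0.03, *Tgfbi* from -0.67 to -0.01 and *Thbs4* from -0.61 to -0.24, with the values nearest 0 without mCDC replicate 2 for *Nov* and *Tgfbi* and without vehicle replicate 2 for *Thbs4*. *Thbs4* was the most abundant of those named here, with 102 and 130 CPM in mCDC replicates 1 and 2 and 137 and 176 CPM in vehicle replicates 1 and 2. Both mCDC values were below both vehicle values, and at an unadjusted p = 0.0417 the gene fell short of 1.5-fold. Of the 7 tendon cell markers, 6 were tested, with *Tnmd* (-1.36) and *Chad* (-1.02) called lower and *Scx* (0.86) higher. *Tnmd* and *Scx* were called under every alternative run. Their adjusted p was 0.560 and 0.566 with the edgeR quasi-likelihood test and 0.0405 and 0.0385 with the edgeR exact test. It was 0.0346 and 0.0363 with the likelihood ratio test, and 0.333 and 0.0472 with DESeq2. *Chad* was at -0.68 without mCDC replicate 1 and at -0.69 without vehicle replicate 1, and was called in neither case. *Comp* and *Thbs4* are also made in tendon, and the part of the tendon markers in their values was not tested.

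The other lysyl oxidases *Loxl2*, *Loxl3* and *Loxl4* had log2 fold changes of -0.22, -0.38 and 0.34, and 0 of the 3 were called. The groups did not overlap in any of these, with the mCDC values above the vehicle values for *Loxl4* (as in 19.2% of all genes) and below them for *Loxl2* and *Loxl3* (as in 19.5%), and their unadjusted edgeR p-values were 0.196, 0.286 and 0.156. Of 24 genes for the proteins that lysyl oxidases cross-link, or that prepare and modify them, 2 were called lower (2.74% of all genes were) and 0 higher (1.26%). The median of the list was -0.22. *Col1a2*, a chain of type I collagen, had a log2 fold change of -0.61 and *Fmod*, a collagen-binding proteoglycan, one of -0.97. *Col1a1*, *Col3a1* and the elastin gene *Eln* were at -0.32, -0.35 and 0.07 and were not called. In this list 7 genes were called lower without vehicle replicate 1 and 1 without vehicle replicate 2, in which case *Col1a2* was at -0.31 and not called. *Fmod* was at -0.54 without mCDC replicate 1 and at -0.66 without vehicle replicate 1, and was called in neither case.

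Among 17 receptors of matricellular proteins, 16 were tested. Of these, 2 were called higher in mCDC muscles (1.26% of all genes were) and 0 lower (2.74%). *Itga5*, the alpha chain of the main fibronectin receptor, had 68.4 and 89.7 CPM in mCDC replicates 1 and 2, and 47.8 and 38.7 CPM in vehicle replicates 1 and 2. Its values did not overlap between the groups, and its log2 fold change was 0.87 (standard error 0.18, unadjusted p = 0.0013, edgeR adjusted p = 0.487), and it was called under every alternative run. Its adjusted p ran from 0.016 to 0.906 over the alternatives and was 0.016 with the edgeR exact test, 0.016 with the likelihood ratio test and 0.018 with DESeq2. *Cd44*, a receptor of hyaluronan and osteopontin, was at 0.84, and its call rested on mCDC replicate 2, with 25.5 CPM against 9.20 to 11.0 CPM in the other 3 libraries. It was at 0.09 without that library. It was also not called, at a similar size, without vehicle replicate 1 (0.98) or 2 (0.71), with library totals (0.76), under either other filter (0.84 and 0.83) or with the replicate block (0.73). *Itgav*, which pairs with several beta chains to bind osteopontin and periostin, was at -0.20 and was not called.

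Of 18 genes of YAP, TAZ, the TEAD factors and their common targets, 1 was called higher (1.26% of all genes were) and 1 lower (2.74%). The median of the list was -0.07. *Ankrd1*, a stretch-responsive target, had a log2 fold change of 0.72, with 256 CPM in mCDC replicate 2 and between 109 and 118 CPM in the other 3 libraries. Without mCDC replicate 2 it was at 0.06. It was also not called, at a similar size, without vehicle replicate 1 (0.78) or 2 (0.67), with DESeq2 (0.73), with library totals (0.64), without a filter on low counts (0.72) or with the replicate block (0.62). *Crim1*, a membrane protein that binds growth factors, was at -0.68, and it was not called without mCDC replicate 2 (-0.34) or vehicle replicate 1 (-0.36). Of 15 TGF-beta pathway genes, *Pmepa1* (0.75), a feedback inhibitor, was called higher (1.26% of all genes were) and the co-receptor *Tgfbr3* (-0.68) lower (2.74%). The median of the list was -0.08. *Pmepa1* was not called without mCDC replicate 2 (0.35) or vehicle replicate 2 (0.69). *Tgfb1* itself was at -0.08. With the length and GC trend removed *Tgfbr3* was at -0.52, *Crim1* at -0.54 and *Col1a2* at -0.52, and these were not called, nor were *Stab1*, *Pdgfra*, *Csf1r* and *Rgs5*. The part of the TGF-beta list in the lower *Fn1* was not tested. Of 11 immediate early and heat shock genes, which are also raised by handling of tissue, 2 were called higher (1.26% of all genes were). These were the transcription factor gene *Atf3* (1.65) and the chaperone gene *Hspa1b* (0.86). *Atf3* had 59.98 CPM in mCDC replicate 2 and 11.8 to 21.6 CPM in the other 3 libraries, and was at 0.74 without mCDC replicate 2. It was called under every alternative run, with an adjusted p of 0.023 by the edgeR exact test, 0.021 by its likelihood ratio test and 0.856 by DESeq2. *Hspa1b* was at 0.576 without vehicle replicate 2, short of 1.5-fold. Its adjusted p was 0.056 by the exact test, 0.051 by the likelihood ratio test and 0.037 by DESeq2. This list of 11 genes summed to 709 and 742 CPM in mCDC muscles and to 560 and 521 CPM in vehicle muscles. Its part in the values of the CCN genes and *Thbs1* was not tested.

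**Figure D5:**
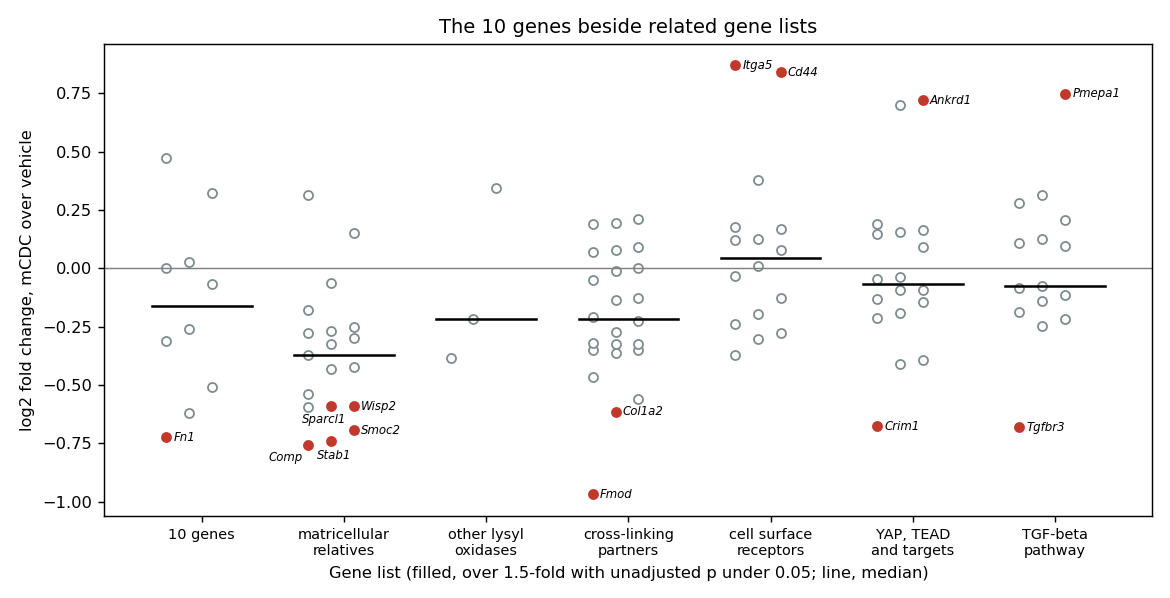
Log2 fold change of every tested gene of the set of 10 and of 6 related lists, where filled points are called genes and lines are list medians. The medians run from -0.37 for the matricellular relatives to 0.04 for the receptors, and *Itga5* (0.87) and *Fmod* (-0.97) are the outermost points.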

How the data were processed

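Per the labels and the methods, the authors mapped single-end reads from 4 soleus libraries to a UCSC transcript set with Bowtie 2 (2.1.0 in the processing notes, build mm10) and deposited RSEM (1.2.15) expected counts per gene without normalization. The methods name a different library kit from the sample records, and whether counting used strand was not given in the sources used here. *Fn1*, *Ctgf*, *Thbs1* and *Lox* share 292, 665, 208 and 30 exon bases with an annotated gene on the other strand, and *Spp1* shares 309 with one on its own strand.

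In R 4.3.3, rounded expected counts were filtered with filterByExpr, scaled with TMM factors (trimmed mean of M-values) and tested with the edgeR (4.0.16) quasi-likelihood method in its current form, with p-values adjusted by the Benjamini-Hochberg method over 13652 genes. Each standard error was derived from the log2 fold change and the F statistic, and 95% intervals use the fitted degrees of freedom. The script was tested on simulated data. Lengths, GC content and gene positions came from GENCODE M21 (GRCm38), which paired 22708 symbols by name and 913 by an older name. Alternatives were DESeq2 1.42.0, other edgeR tests, scalings and filters, offsets for length and GC content (fitted with mgcv 1.9.3), the replicate number as a block, and leaving out each library. The 10 genes and the lists were chosen with earlier results of these data known. Protein sequences were not used here, and 1 gene of the TGF-beta list is not reported here and is left out of that list's counts and median. Named besides the 10 were listed genes that were called and a fixed set of relatives and context genes. The study gives an n of 2 per condition for the sequencing, but the sources do not state outright that they came from separate mice. The p-values set each group difference against a spread between libraries that the fit moderates over all genes. That spread may be technical.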

Additional observations from a re-analysis of the deposited data

How the results depend on the processing

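With 2 libraries per group, the limits of these results are the spread between libraries and, for *Spp1*, counts of 34 to 62. For the changes given here the cause was not tested. Of 150 values of the 10 genes under alternatives, 127 kept both direction and side of the threshold. The number called lower was 1, and it was 2 (*Fn1* and *Postn*) with library totals in place of the trimmed mean, 0 with the length and GC trend removed and 0 with that trend removed and the replicate block. It was 1 with each library left out (range 1 to 1), but that gene was *Fn1* only without replicate 1 of either group, *Postn* without mCDC replicate 2 and *Ctgf* without vehicle replicate 2. With a library left out, the lone library of its group is assumed to vary like those of the other group. The number called higher ran from 0 to 1 with a library left out, with *Lox* or *Cyr61* called. Over all genes, leaving out a library gave 236 to 834 called lower and 112 to 397 called higher, with 834 lower without vehicle replicate 1, 236 lower and 112 higher without mCDC replicate 2, 397 higher without mCDC replicate 1 and 273 higher without vehicle replicate 1. None of the 10 had an adjusted p under 0.05 in any setting; for *Fn1* the adjusted p ran from 0.119 to 0.9997.

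Replicate numbers are shared between groups, but nothing in the labels ties them to a common animal or day. The differences between replicates 1 and 2 of the groups had a correlation of -0.039 across 13652 genes. With the replicate block, 308 genes were called lower in place of 374 and 172 higher, and *Fn1* was at -0.71 and still the 1 gene of the 10 called.

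Direction changed for these values. *Thbs1* was at -0.0734 with library totals, -8.4e-04 without a filter on low counts and -0.0034 when 10 counts were required of each library, beside 0.0025. *Thbs2* was at -0.0464 and *Eln* at -0.0150 with library totals. *Itgav* was at 0.0118 with the length and GC trend removed and 0.0140 with the block added. With a library left out, values ran from -0.89 to 0.66 for *Ctgf*, -0.11 to 1.47 for *Cyr61*, -0.28 to 0.30 for *Thbs1*, -0.26 to 0.39 for *Thbs2*, -0.53 to 0.0776 for *Sparc*, -0.0563 to 0.63 for *Lox*, -0.30 to 0.21 for *Loxl1*, -0.70 to 0.0579 for *Thbs3*, -0.82 to 0.98 for *Tnc*, -0.63 to 0.0707 for *Col1a1*, -0.66 to 0.0488 for *Col3a1*, -0.33 to 0.38 for *Eln*, -0.25 to 0.12 for *Tgfb1* and -0.37 to 0.0025 for *Itgav*.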

Other observations

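Although *Ctgf* and *Cyr61* each differed almost 3-fold between the vehicle muscles, their ratio per exon length did not. *Ctgf* stood at 0.421 and 0.432 of *Cyr61* in vehicle replicates 1 and 2, and at 0.218 and 0.266 in mCDC replicates 1 and 2. This ratio was chosen after its values were seen, so it has no test. All 45 ratios between the 10 genes were computed, and 15 did not overlap between the groups. Over all single genes tested, 19.5% lay lower and 19.2% higher in mCDC muscles without overlap. No such share was computed for ratios of other genes, so nothing is read from this count. Among those that did not overlap, the widest separation on the log2 scale was that of *Spp1* to *Lox*, at 0.956 in each vehicle library against 0.563 and 0.458 in mCDC replicates 1 and 2, and the ratio of *Ctgf* to *Cyr61* came next. The ratios share genes and are not independent of each other.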
